A study of Homo sapiens with 9 samples.

Results

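The RNAs described here are the long intergenic noncoding RNAs that gave a signal in BT-549 cells, a human triple-negative breast cancer line. Every array feature whose single gene symbol in the platform annotation had the form LINC followed by digits was taken, the feature with the highest mean stood for its gene, and a gene was kept when its mean log2 signal over all 9 arrays was 3 or more. The genes were thus chosen by their measured mean signal. The rule left 73 of 458 such genes (15.9%), out of 14884 genes with a symbol. The cells received miR-150-5p mimic at 50 nM, a non-specific negative control small RNA at 50 nM, or the lipid reagent (Lipofectamine RNAiMAX) with no RNA, called mock. All 3 groups thus shared the lipid, the medium with serum and the harvest at 72 h, and each had 3 samples read on 1 whole-transcript array each. Nothing in the labels says that replicates came from separate cultures, so p-values here reflect array-to-array scatter that could be purely technical. With 3 arrays per group the precision is limited.

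Long intergenic noncoding RNAs are transcribed from their own genes between protein-coding genes, are mostly spliced and polyadenylated like mRNAs, and carry no long reading frame. Some act near their site of transcription on neighbouring genes, some bind proteins or microRNAs, and a few were later found to encode short peptides. They are known for low abundance and for being made in few tissues or tumour types. A microRNA such as miR-150-5p guides an Argonaute protein to RNAs that pair with its seed, and a control small RNA shares the same route into the cell.

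Of the 73 genes, 6 passed a test in at least 1 comparison. The matching share over all genes is not given here, so this count is no result about the LINC genes. Shares for single comparisons are given with each comparison below. The promoters of 3 of them are shown, because the call of LINC02035 held with any single array left out and because LINC00472 and LINC00641 both had their lowest group mean in the negative control. The capitals mark every match, on either strand, to 5 short motifs, whose matches may overlap. The first was the GC box, with the letters GGGCGG. Next came the TATA box, spelled TATAAA, followed by the CCAAT box under its own letters. The motifs also included the E-box form CAGGTG, which SNAI and ZEB factors bind, and an AP-1 site with the letters TGACTCA. The sequences are from RefSeq (GRCh38.p14) and run 5′ to 3′ on the gene's strand, from 250 bases before the start to 50 bases from it on. They lie at chr3:122886263-122886562 (plus strand), chr6:71420696-71420995 (minus) and chr14:21206851-21207150 (minus).
LINC02035: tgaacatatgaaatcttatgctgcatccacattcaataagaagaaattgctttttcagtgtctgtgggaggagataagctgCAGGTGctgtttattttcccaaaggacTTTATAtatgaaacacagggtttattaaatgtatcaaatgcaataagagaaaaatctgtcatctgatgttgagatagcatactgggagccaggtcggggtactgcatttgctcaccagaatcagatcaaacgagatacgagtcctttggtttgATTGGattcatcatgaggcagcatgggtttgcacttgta
LINC00472: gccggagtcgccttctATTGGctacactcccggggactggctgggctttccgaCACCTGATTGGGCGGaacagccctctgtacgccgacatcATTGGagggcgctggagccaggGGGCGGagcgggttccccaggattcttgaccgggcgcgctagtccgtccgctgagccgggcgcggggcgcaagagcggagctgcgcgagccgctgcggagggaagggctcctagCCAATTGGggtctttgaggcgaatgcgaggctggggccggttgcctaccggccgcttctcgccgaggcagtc
LINC00641: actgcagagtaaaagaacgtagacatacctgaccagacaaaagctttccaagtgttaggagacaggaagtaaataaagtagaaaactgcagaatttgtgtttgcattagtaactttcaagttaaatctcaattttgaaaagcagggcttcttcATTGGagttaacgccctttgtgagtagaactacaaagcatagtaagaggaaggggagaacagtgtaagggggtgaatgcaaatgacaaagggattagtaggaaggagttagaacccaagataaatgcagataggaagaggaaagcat

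The promoter of LINC00472 was 68.7% G or C with 31 CpG dinucleotides, that of LINC02035 39.3% with 3 and that of LINC00641 39.0% with 2. The promoter of LINC00472 held 2 GC boxes, 5 CCAAT matches and 1 E-box match, that of LINC00641 held 1 CCAAT match alone, and that of LINC02035 held 1 TATA, 1 CCAAT and 1 E-box match. Of the 73 genes, 56 had an entry in the promoter table, with a median of 58.2% G or C against 58.3% over all 27305 promoters of this length. A GC box was present in 26 of the 56 (46.4%) against 44.6% of all promoters. A TATA box was present in 16.1% against 12.0%, a CCAAT box in 50.0% against 35.7%, the E-box in 28.6% against 20.6% and the AP-1 site in 8.93% against 4.92%. These matches describe the letters in the window and were not tested.

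The mean signals that chose the genes ran from 3.03 to 10.2, with a median of 3.78, and 42 of the 73 lay under 4. The genes nearest above the threshold were LINC00693 (3.03), LINC00582 (3.05) and LINC01134 (3.06), and those nearest below it were LINC00905 (2.99), LINC01623 (2.99) and LINC00421 (2.97). In 69 of the 73 the means of all 3 groups reached 3, in 3 those of 2 groups, and in LINC00693 that of mock alone. On all 9 arrays 59 of the 73 reached 3.

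**Figure D1:**
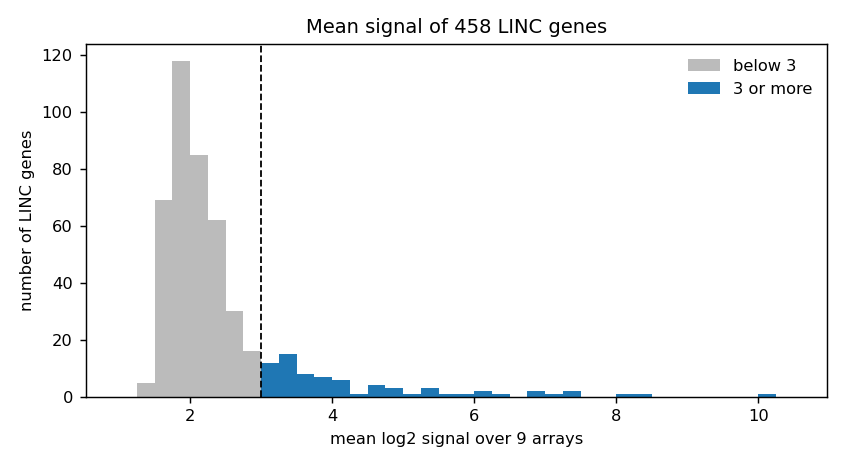
Histogram of the mean log2 signal over 9 arrays (x axis) of 458 LINC genes (y axis, number of genes per bin of 0.25), with the dashed line at the threshold of 3. The 73 genes at 3 or more, in blue, form the upper tail, and 385 genes lie below it.

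All 73 genes matched the RefSeq gene table by gene ID, under unchanged symbols and each with the type lncRNA. This sets an annotation beside another and is no check on what the features measured. Array medians over all features lay between 2.43 and 2.48, and Pearson's r between arrays was 0.981 to 0.989 within groups and 0.977 to 0.986 between them. Vimentin (VIM), a filament protein of mesenchymal cells, read 8.47 to 9.38, while the estrogen receptor gene ESR1 read 1.96 to 2.37, the progesterone receptor gene PGR 1.77 to 1.85, the epithelial marker EPCAM 1.64 to 2.01 and the endothelial marker PECAM1 2.01 to 2.80. The average signal of 23 snoRNA and scaRNA genes ran from 5.62 to 6.83 over the arrays and was highest on mock 2, negative control 2 and mimic 3 within their groups. With it as a covariate in the fit, 5 of the 73 genes were called for mimic against negative control, 5 for mimic against mock and 2 for negative control against mock, where the fit without it called 3, 3 and 0. The share of all genes called in the fit with the covariate is not given here, so this change in counts is no result about the LINC genes.

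Differences between the arrays were small in most of the 73 genes. The range over the 9 arrays had a median of 0.61 on the log2 scale, from 0.13 to 2.09, and it reached 1 in 15 genes and stayed under 0.5 in 22. The SD within groups had a median of 0.175 over the 73 genes, against 0.167 over all 8294 genes with a mean signal of 3 or more and 0.111 over the 385 LINC genes below it. The highest group mean was that of mock in 37 genes, of the mimic in 19 and of the negative control in 17. The lowest was that of the mimic in 33, of the negative control in 29 and of mock in 11.

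**Figure D2:**
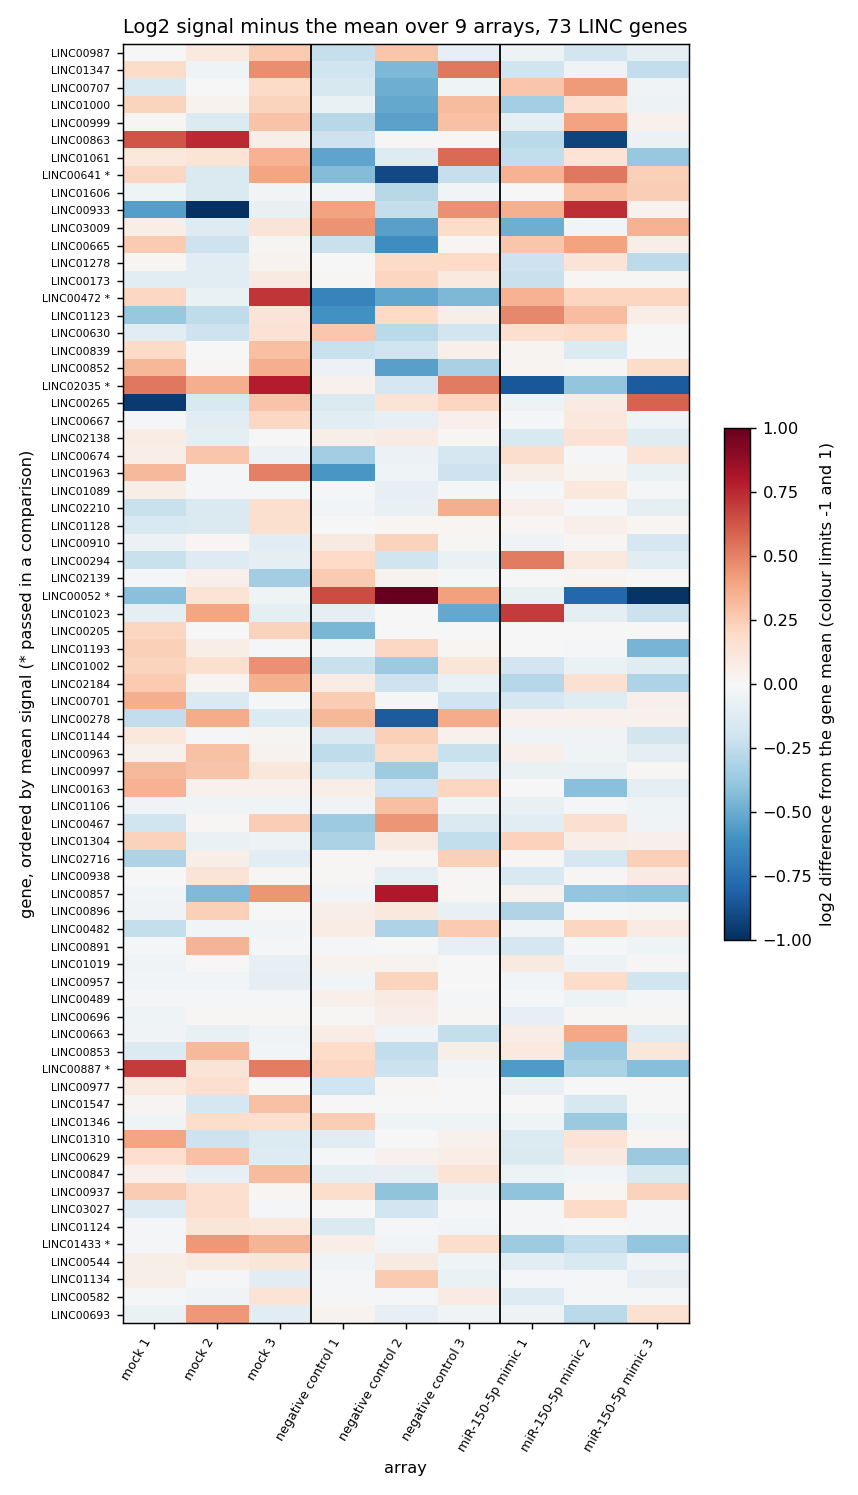
Heat map of 73 LINC genes (rows, ordered by mean signal) on 9 arrays (columns), where colour gives the log2 signal minus the gene's mean over the 9 arrays, with colour limits of -1 and 1 that LINC00052 on negative control 2 and LINC00933 on mock 2 exceed. Red is above and blue below the gene's mean, lines part the groups, and stars mark the 6 genes that passed in a comparison, among which LINC00052, LINC02035, LINC00887 and LINC01433 are blue on all 3 mimic arrays.

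The mimic was compared with the negative control to separate the effect of miR-150-5p from that of transfecting a small RNA at the same dose. Of the 73 genes, 2 rose, 1 fell and 70 did not pass (limma, adjusted p under 0.05 over all genes tested), so 4.11% were called. Among all genes tested 3.18% were called, with 1.76% rising and 1.42% falling. Among those with a mean signal of 3 or more it was 5.38%, with 3.06% rising and 2.31% falling. At an unadjusted p under 0.05 there were 11 of the 73 (15.1%), against 16% and 24.4%. The share among the LINC genes is thus near the background and is no result about them. After another quantile normalization 2 rose and 2 fell.

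LINC00052, a noncoding RNA studied in breast cancer, where effects on growth and migration were reported, read 3.53, 4.08 and 3.90 on the mock arrays, 4.60, 5.05 and 4.36 on the negative control arrays and 3.87, 3.17 and 2.96 on the mimic arrays. Every negative control array lay above every other array, while mock and mimic overlapped with each other. It fell against the negative control, with a log2 difference of -1.34 ± 0.25 (SE, 2.52-fold lower, n = 3 per group, limma adjusted p = 0.024). Against mock the difference was -0.50 ± 0.25 (SE, adjusted p = 0.35). Leaving out negative control 1 or 2, or mimic 2 or 3, ended the call (adjusted p up to 0.092).

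LINC00641, described in several tumours as an RNA that binds microRNAs, read 7.02, 6.67 and 7.21 in mock, 6.39, 5.92 and 6.59 in the negative control and 7.16, 7.34 and 7.05 in the mimic. The negative control arrays were the lowest and did not overlap either other group. It rose by 0.89 ± 0.18 against the negative control (1.85-fold, adjusted p = 0.034) and stood at 0.22 ± 0.18 against mock (adjusted p = 0.62). Its other feature gave 0.44 against the negative control. Leaving out mock 1, negative control 1 or 2, or any mimic array ended the call (adjusted p up to 0.12).

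LINC00472, whose low level has been linked to more aggressive breast tumours, also had its lowest mean in the negative control. It read 5.64, 5.37 and 6.15 in mock, 4.76, 4.91 and 4.98 in the negative control and 5.78, 5.64 and 5.64 in the mimic. The mimic arrays lay within the range of mock and above all negative control arrays. It rose by 0.80 ± 0.17 against the negative control (1.75-fold, adjusted p = 0.036) and was at -0.03 ± 0.17 against mock (adjusted p = 0.97). Leaving out any array other than mock 2 or mock 3 ended the call (adjusted p up to 0.13), as did the fit with the replicate number as a block (adjusted p = 0.053).

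In 12 of the 73 genes (16.4%) the 3 mimic arrays lay apart from the 3 negative control arrays, as in 18.6% of all genes tested and 26.6% of those with a mean signal of 3 or more. The mimic was higher in 8 of these and lower in 4, against 10.3% and 8.3% of all genes tested and 16.4% and 10.2% of those at 3 or more. LINC02035 did not pass at -0.82 ± 0.19 (adjusted p = 0.053). LINC00665, whose transcript has been reported to encode a small peptide in triple-negative breast cancer, read 5.65, 5.25 and 5.89 in the negative control and 6.15, 6.27 and 5.93 in the mimic. Its difference was 0.52 ± 0.18 (adjusted p = 0.17), and its other feature gave 0.89. LINC00707, studied in lung and other tumours, stood at 0.45 ± 0.15 (adjusted p = 0.17), with 7.63 to 8.07 on negative control and 8.08 to 8.54 on mimic arrays. LINC00852 differed by 0.38 ± 0.14 (adjusted p = 0.21). On the lower side, LINC00887 was at -0.42 ± 0.16 (adjusted p = 0.22) and LINC01433 at -0.40 ± 0.12 (adjusted p = 0.12).

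The median of the 73 differences was -0.024 (quartiles -0.11 and 0.14), beside -0.0044 over all genes tested, and 35 were above 0 and 38 below. In 51 genes the difference was under 0.2 in size. The count of called genes was 1 without mock 1, negative control 2 or mimic 1, and 0 without negative control 1, mimic 2 or mimic 3. Of these counts of 1, that without negative control 2 was LINC02035 and the others LINC00052.

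**Figure D3:**
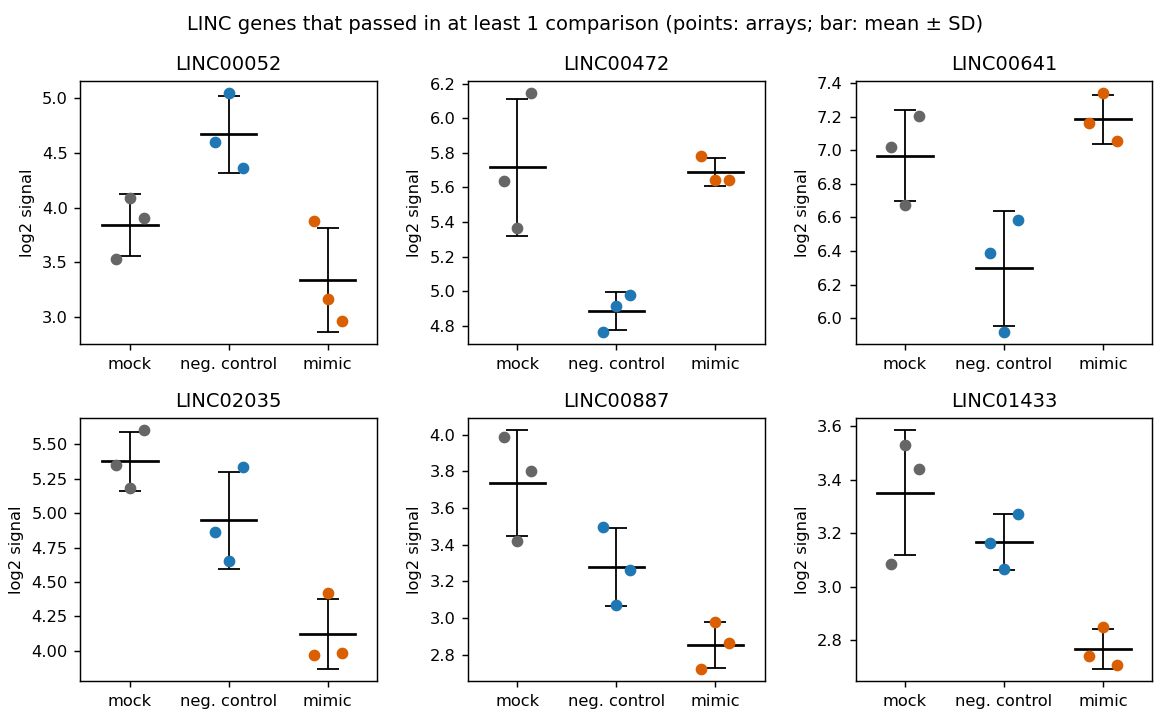
Log2 signal (y axis, a separate scale per panel) of the 6 LINC genes that passed in at least 1 comparison, in mock, negative control and mimic arrays (x axis), with points for single arrays and bars for the mean ± SD of 3 arrays. In the upper row the negative control arrays lie apart from both other groups, highest for LINC00052 and lowest for LINC00472 and LINC00641, and in the lower row the mimic arrays are the lowest.

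The comparison of the mimic with mock sets the mimic against the lipid alone. Of the 73 genes, 0 rose, 3 fell and 70 did not pass, which is 4.11%. Among the 3, LINC00887 and LINC01433 had mimic means under 3 and reached the threshold through the other groups. The rule itself thus bears on their falls. Among the 59 genes at 3 or more on every array 1 fell, LINC02035. Among all genes tested 3.9% were called (2.28% rose and 1.62% fell), and among those with a mean signal of 3 or more 6.64% (3.98% rose and 2.66% fell). At an unadjusted p under 0.05 there were 10 of the 73 (13.7%), against 17.5% and 27%. These shares lie near or below the background. The mimic arrays were the same as in the comparison with the negative control, so the 2 sets of differences are not independent.

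LINC02035, a gene without a described role known here, read 5.35, 5.18 and 5.61 in mock, 4.86, 4.65 and 5.34 in the negative control and 3.97, 4.42 and 3.99 in the mimic. Each mimic array lay below all 6 others, and mock and negative control overlapped. It fell against mock, with a difference of -1.25 ± 0.19 (2.38-fold lower, adjusted p = 0.0093). The call held with any 1 of the 9 arrays left out, though barely without mimic 1 (adjusted p = 0.04995).

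LINC00887 read 3.99, 3.42 and 3.80 in mock, 3.50, 3.07 and 3.26 in the negative control and 2.72, 2.98 and 2.86 in the mimic. The mimic arrays lay below all others, and the difference from mock was -0.88 ± 0.16 (1.84-fold lower, adjusted p = 0.017). LINC01433 read 3.09, 3.53 and 3.44 in mock, 3.16, 3.07 and 3.27 in the negative control and 2.74, 2.85 and 2.71 in the mimic. Here too every mimic array lay below the rest, and the difference from mock was -0.58 ± 0.12 (adjusted p = 0.030). Both genes had mimic means under 3 (2.85 and 2.77) and reached the threshold through the other groups. LINC00887 did not pass when mock 1, mimic 1 or mimic 3 was left out (adjusted p up to 0.076). LINC01433 did not pass when mock 2 or 3, negative control 1 or any mimic array was left out (adjusted p up to 0.11), or in the fit with the replicate number as a block (adjusted p = 0.053).

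Between mimic and mock the arrays lay apart in 12 of the 73 genes (16.4%), against 20.2% of all genes tested and 28.9% of those with a mean signal of 3 or more. The mimic was lower in 10 of them and higher in 2, against 8.52% and 11.7% of all genes tested and 10.6% and 18.3% of those at 3 or more. LINC00863, the next on the lower side, read 7.63, 7.75 and 7.06 in mock and 6.73, 6.08 and 6.94 in the mimic, a difference of -0.90 ± 0.23 (adjusted p = 0.066). LINC00933 read 5.58, 5.02 and 6.06 in mock, 6.54, 5.90 and 6.59 in the negative control and 6.49, 6.87 and 6.17 in the mimic. It stood 0.96 ± 0.28 above mock (adjusted p = 0.10), while its other feature gave -0.085. The other genes with arrays apart and the largest differences were LINC01002 (-0.40 ± 0.13, adjusted p = 0.13) and LINC01606 (0.25 ± 0.11, adjusted p = 0.25).

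The 73 differences had a median of -0.079 (quartiles -0.20 and 0.048), beside 0.00035 over all genes tested and 0.042 over those with a mean signal of 3 or more. Among the 59 LINC genes at 3 or more on every array the median was -0.016. Below 0 were 49 genes and above it 24, but with each array centred on its median 39 were below and 34 above. Over all genes tested 7409 were below 0 and 7468 above. Among 119 genes named as antisense transcripts with a mean signal of 3 or more, 73 were below 0 and 46 above (median -0.062). The count of called genes among the 73 LINC genes was 1, LINC02035, without mimic 1 or mimic 3. With all 53617 features tested, LINC02035 was the 1 gene of the 6 that passed (adjusted p = 0.043). In fits of only the 6 arrays compared, LINC00052, LINC00641 and LINC01433 did not pass, and with the replicate number as a block in those fits none of the 6 did (adjusted p from 0.095 to 0.18).

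**Figure D4:**
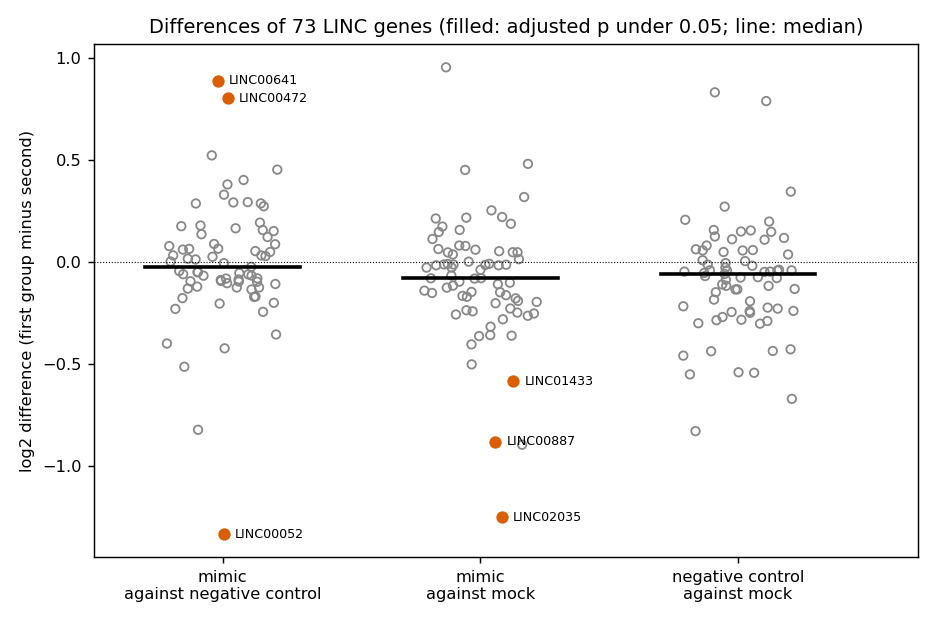
Log2 differences (y axis, first group minus second) of 73 LINC genes in the 3 comparisons (x axis), with filled and named points for genes at an adjusted p under 0.05, open points for the others and a line at the median. The medians lie at -0.024, -0.079 and -0.059, and the filled points are 3 against the negative control, 3 against mock and 0 between the controls.

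The negative control was compared with mock to see how this control small RNA differed from the lipid alone. None of the 73 genes passed by limma (0 called, with 13 at an unadjusted p under 0.05), where 0.645% of all genes tested (0.168% rose, 0.477% fell) and 1.12% of those with a mean signal of 3 or more (0.289% rose, 0.832% fell) were called. The 13 are 17.8%, against 11% of all genes tested and 16.3% of those with a mean signal of 3 or more. The smallest adjusted p was that of LINC00472, at -0.83 ± 0.17 (1.78-fold lower, adjusted p = 0.071). Without mock 2 it passed, and it was then the 1 gene called.

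The arrays of negative control and mock lay apart in 8 of the 73 genes, against 12% of all genes tested and 15.9% of those with a mean signal of 3 or more. The negative control was lower in 7 of them and higher in 1, LINC00052, against 5.78% and 6.21% of all genes tested and 7.9% and 8.02% of those at 3 or more. LINC00052 stood at 0.83 ± 0.25 (adjusted p = 0.23). LINC00641 was at -0.67 ± 0.18 (adjusted p = 0.19). LINC01963 differed by -0.55 ± 0.16 (adjusted p = 0.21), with 4.68, 4.34 and 4.86 on mock and 3.77, 4.31 and 4.15 on negative control arrays, and 4.42, 4.39 and 4.29 on mimic arrays. LINC00852 read 5.18, 4.86 and 5.21 in mock and 4.79, 4.30 and 4.52 in the negative control (-0.54 ± 0.14, adjusted p = 0.14). LINC00863 was at -0.54 ± 0.23 (adjusted p = 0.43).

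The median of the 73 differences was -0.059 (quartiles -0.24 and 0.057), beside 0.0076 over all genes tested, and 50 genes were below 0 and 23 above. The split was 46 and 27 after another quantile normalization and 49 and 24 with arrays centred on their medians. Over all genes tested 7114 were below 0 and 7763 above. The tilt was not particular to the LINC genes. Among 119 genes named as antisense transcripts with a mean signal of 3 or more, 79 were below 0 and 40 above (median -0.076). Each control group enters a pair of the comparisons, so the values of a gene in them share arrays. For LINC00052, LINC00472 and LINC00641 the difference between the controls had the opposite sign to that of mimic against negative control, and for LINC02035, LINC00887 and LINC01433 it had the same sign, at -0.43, -0.46 and -0.18.

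Of 34 LINC genes listed because a role has been described for them, 5 were among the 73, 13 were measured below the threshold and 16 had no feature with that single symbol here. The first 4 were LINC00052, LINC00472, LINC00665 and LINC00707, with values as given. The fifth, LINC00467, a transcript raised in several tumours, differed by 0.03 ± 0.20 between mimic and negative control (adjusted p = 0.97) and by -0.02 ± 0.20 between mimic and mock (adjusted p = 0.98). Its arrays ran from 3.17 to 3.98 and overlapped between all groups. Whether any of the 16 listed genes without such a feature is on the array under another symbol was not tested.

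The neighbours of the 6 genes were taken from the RefSeq gene table (GRCh38.p14). The gene next to LINC02035 on one side is SLC49A4, a transporter gene of the lysosome membrane, which read 7.40, 7.16 and 7.71 in mock, 7.33, 7.52 and 7.92 in the negative control and 6.02, 5.89 and 5.88 in the mimic. The difference of SLC49A4 was -1.66 ± 0.17 from the negative control (3.16-fold lower, adjusted p = 0.0016) and -1.49 ± 0.17 from mock (2.81-fold lower, adjusted p = 0.0022). The 3 mimic arrays were thus the lowest for both neighbours, and between negative control and mock they stood at -0.43 (LINC02035) and 0.17 (SLC49A4).

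None of the other measured neighbours passed in either comparison of the mimic. Several of them were dim, with mean signals below 3. These were RIMS1 (1.92), MIR30A (2.65), AGBL1 (2.74) and ADRA1D (2.77), while SMOX (3.88), HNRNPC (6.95) and OGFRL1 (7.60) lay above it. HNRNPC, an RNA-binding protein gene next to LINC00641, stood at 0.25 ± 0.17 against the negative control (adjusted p = 0.54). OGFRL1, the nearest protein-coding gene on one side of LINC00472, was at 0.04 ± 0.15 (adjusted p = 0.94), and RIMS1 on its other side at 0.10 ± 0.083 (adjusted p = 0.64). The microRNA gene MIR30A, which lies closer to LINC00472 than OGFRL1, was at 0.57 ± 0.24 (adjusted p = 0.28). SMOX, a polyamine oxidase gene, and ADRA1D, an adrenergic receptor gene, flank LINC01433 and were at 0.21 ± 0.18 (adjusted p = 0.63) and 0.12 ± 0.12 (adjusted p = 0.68) against mock. AGBL1, on one side of LINC00052, was at -0.12 ± 0.11 against the negative control (adjusted p = 0.66), and the neighbours of LINC00887 were not analysed here.

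The genes most like each of the 6 by Pearson's r over the 9 arrays, which the group differences enter, were then named. LINC00641 was most like LINC-PINT (r = 0.98), a long noncoding RNA that p53 induces, which read 7.02, 6.40 and 7.08 in mock, 5.99, 5.39 and 6.37 in the negative control and 7.19, 7.75 and 7.22 in the mimic. LINC-PINT rose by 1.47 ± 0.27 against the negative control (2.78-fold, adjusted p = 0.020). The others most like LINC00641 were PTK2 and MTHFD1L (both 0.96). LINC02035 was most like EPAS1 (0.97), the hypoxia-inducible factor 2-alpha gene, with OLFML2A and ZNF462 next (both 0.96). LINC01433 was most like SRF (0.98), a transcription factor of actin genes, with HHATL and PAXBP1-AS1 next (both 0.97). LINC00887 was most like TPM1 (0.98), a tropomyosin gene, then DOCK9 (0.97) and TBX18 (0.96). LINC00472 was most like CTPS1 (0.97), SOAT1 (0.95) and BOD1 (0.94), and LINC00052 like SSBP2, GPX4 and POLR2H (each 0.96).

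**Figure D5:**
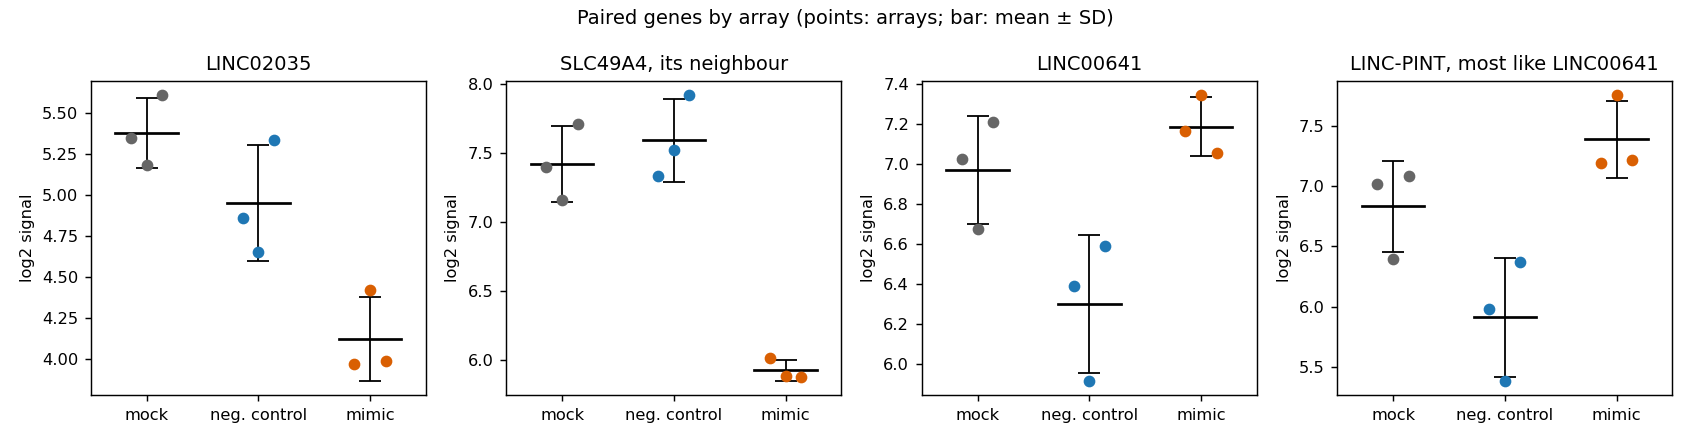
Log2 signal (y axis, a separate scale per panel) of LINC02035 and its neighbour SLC49A4, and of LINC00641 and LINC-PINT, the gene most like it, in mock, negative control and mimic arrays (x axis), with points for single arrays and bars for the mean ± SD of 3 arrays. The mimic arrays are the lowest for LINC02035 and SLC49A4, and the negative control arrays are the lowest for LINC00641 and LINC-PINT.

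Of the 73 genes, 22 had more than 1 feature, with 37 other features in all. The other features had the sign of the chosen one in 14 of 37 cases for mimic against negative control, 23 for mimic against mock and 28 for negative control against mock. LINC01061 with 7 features, LINC01347 with 6 and LINC00173 and LINC00999 with 4 each had the most. Whether their features read near-identical copies of a gene was not tested, and their values are uncertain. Among the 6 called genes LINC00641 alone had a second feature.

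The LINC genes below the threshold gave 0 calls among 385 against the negative control, with 12 at an unadjusted p under 0.05 by limma (3.12%, against 16% of all genes tested), and 3 falls against mock (0.779%, against 3.9% of all genes tested called). The 3 were LINC00882 (-0.78 ± 0.15, adjusted p = 0.024), LINC01164 (-0.65 ± 0.15, adjusted p = 0.0496) and LINC01502 (-0.44 ± 0.097, adjusted p = 0.040). With arrays centred, or after another quantile normalization, 2 fell. Of all genes called, 446 of 473 against the negative control and 551 of 580 against mock had a mean signal of 3 or more. The shares over all genes tested are thus no like background for dim genes. The lower shares among the 385 are no result about the LINC genes.

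Other long noncoding RNAs were counted in the same fit. Of 480 genes named as antisense transcripts, 1 rose and 2 fell against the negative control and 0 rose and 3 fell against mock. The calls were 0.625% of these genes in each comparison, against 3.18% and 3.9% of all genes tested. Only 119 of the 480 had a mean signal of 3 or more. Of those, 1.68% and 2.52% were called, against 5.38% and 6.64% of all genes at 3 or more. Among the 480, against the negative control 0 rose and 3 fell after another quantile normalization, and 2 rose and 2 fell with arrays centred. The genes called against mock were CCDC18-AS1 (-0.77 ± 0.12), HIF1A-AS2 (-0.62 ± 0.11) and PTOV1-AS1 (-0.51 ± 0.12). Between the negative control and mock 1 of the 480 was called, HIF1A-AS2, which fell there too (-0.77 ± 0.11, adjusted p = 0.018). Of 25 measured long noncoding RNAs with names of their own, from a list of 40, 2 rose against the negative control and 0 passed against mock. Against mock 6 had an unadjusted p under 0.05 by limma, or 24%. That share was 17.5% over all genes tested and 27% over those with a mean signal of 3 or more. The 2 that rose were LINC-PINT and MIR31HG, the host transcript of miR-31, which rose by 1.21 ± 0.18 (adjusted p = 0.0074). Of 9 small nucleolar RNA host genes SNHG16 rose, by 0.66 ± 0.13 against the negative control (adjusted p = 0.025) and 0.67 ± 0.13 against mock (adjusted p = 0.022). The 2 calls of 25 are 8% and the 1 call of 9 is 11.1%, beside 3.18% of all genes tested against the negative control and 3.9% against mock. Over genes with a mean signal of 3 or more these background shares were 5.38% and 6.64%.

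Nuclear RNA turnover limits the level of many noncoding RNAs, through the exosome, which degrades RNA from its end, and through nucleases such as XRN2. A fixed list of 28 RNA turnover genes was counted, of which 19 were measured. The list was mixed, as it also held genes outside nuclear turnover, such as XRN1, UPF1 and SMG6. Of the 19 measured, 0 passed against the negative control (6 at an unadjusted p under 0.05 by limma). Against mock 2 rose, 0 fell and 17 did not pass. The 6 are 31.6%, against 16% of all genes tested and 24.4% of those with a mean signal of 3 or more, and the 2 are 10.5%, against 3.9% and 6.64% called. The 2 were the exosome subunit gene EXOSC4 (0.73 ± 0.14, adjusted p = 0.025) and XRN2 (0.49 ± 0.11, adjusted p = 0.046), of which 1 passed after another quantile normalization. Against the negative control EXOSC4 stood at 0.25 ± 0.14 and XRN2 at 0.37 ± 0.11 (limma adjusted p = 0.45 and 0.13). Between negative control and mock they stood at 0.48 ± 0.14 and 0.12 ± 0.11 (limma adjusted p = 0.22 and 0.77). In both comparisons of the mimic 17 of the 19 were above 0 (15 against the negative control after another quantile normalization), with medians of 0.15 and 0.22, beside -0.0044 and 0.00035 over all genes tested and 0.035 and 0.042 over those with a mean signal of 3 or more. After another quantile normalization the medians were 0.077 and 0.14. Between the negative control and mock 11 were above 0 and 8 below.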

How the data were processed

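Total RNA of 9 samples of the cell line BT-549 (3 mock, 3 negative control, 3 miR-150-5p mimic), extracted with Trizol and labelled with the FlashTag biotin kit per the labels, was read on Affymetrix Human Gene 2.0 ST arrays. The deposited values are log2 signals that the authors made with RMA, per the submitters' processing notes; its version was not given in the sources used here. RMA corrects background, equalises array distributions and sums each feature's probes, so a shift common to all genes would not be seen.

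Of 53617 features, 16098 had 1 symbol in the platform annotation and 37519 had none or several. The feature with the highest mean stood for each of 14884 genes. limma 3.58.1 in R 4.3.3 (lmFit, eBayes) was fitted to all 9 arrays with 1 mean per group (6 residual and 9.60 total degrees of freedom). P-values were two-sided and adjusted by Benjamini and Hochberg over all genes of a comparison, with a call at an adjusted p under 0.05. Differences are log2 ± SE with n = 3 arrays per group. No count, median or likeness over the LINC genes was tested. The pipeline was tested on simulated data.

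The members, lists and alternatives were chosen with earlier results of these data known. Genes named are those called, the 5 largest rises and falls in each comparison among genes whose arrays lay apart, the listed genes with a described role, and neighbours and most similar genes of those called. The replicate numbers were checked by the correlation across genes of deviations from group means. For negative control with mock, same-numbered pairs gave r = 0.15, 0.23 and 0.15, and unlike-numbered pairs gave -0.16 to 0.022. Mimic 1 with negative control 2 reached 0.24, though, so such values do not settle a pairing, and no label states one. The values printed come from the fit without the replicate number, and the fit with it as a block is an alternative. For the mimic with either control, same-numbered pairs gave r between -0.29 and -0.054, which does not pair it. Gene neighbours, gene types and promoter sequences are from RefSeq (GRCh38.p14); no mature sequence of miR-150-5p is printed here. Of 12 marker genes for the cell line check, those without a single-symbol feature were not analysed here.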

Additional observations from a re-analysis of the deposited data

How the results depend on the processing

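With all 53617 features tested, 0 LINC genes were called against the negative control and 1 (LINC02035) against mock. In the fit of only the 6 arrays compared, 1 was called against the negative control (LINC00472); with the replicate block in that fit, chosen after seeing the data, 0 were called in each comparison. With the replicate block on 9 arrays 2 were called against the negative control, 2 against mock and 0 between the controls. The block left all medians as they were, as it must with each replicate number once in each group. With the small nucleolar RNA mean as a covariate the counts were 5, 5 and 2. At an adjusted p under 0.01 they were 0 against the negative control and 1 against mock. Between the controls 1 was called after another quantile normalization and 1 with dim genes (below the median signal) dropped. Against mock, 5 were called with a threshold of 2.5, 1 with a threshold of 4 and 1 among genes at 3 or more on every array. The cause of these changes was not tested, beyond the smaller number of arrays or genes in a fit. Shares of all genes called in these alternatives are not given here.

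Leaving out 1 array at a time gave 0 to 3 called genes against the negative control, 1 to 3 against mock and 0 to 1 between the controls. The medians then ran from -0.035 to 0.015, from -0.081 to -0.040 and from -0.096 to -0.047. The median against the negative control was -0.047 after another quantile normalization, -0.0045 with arrays centred, 0.0075 with dim genes (below the median signal) dropped, -0.050 and 0.065 with thresholds of 2.5 and 4, and 0.016 among genes at 3 or more on every array. Against mock it was -0.050 with arrays centred, -0.098 with the mean of a gene's features, -0.021 with dim genes (below the median signal) dropped, -0.012 with a threshold of 4 and -0.016 among genes at 3 or more on every array. No called gene changed direction under any alternative run.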
